A study of Mus musculus with 6 samples.

Results

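The genes described here encode the phase II conjugating enzymes of mouse colon: UDP-glucuronosyltransferases, glutathione transferases and cytosolic sulfotransferases. They were chosen by symbol alone, as every row of the deposited table whose name starts with Ugt1a, Ugt2, Ugt3, Gsta, Gstm, Gstp, Gstt, Gsto, Gstz, Mgst or Sult and goes on only with digits or lower-case letters. This gave 53 of the 25339 genes in the table: 18 glucuronosyltransferase, 25 glutathione transferase and 10 sulfotransferase genes. RNA from colon was sequenced in 6 libraries, 3 from mice given the solvent DMSO and 3 from mice given lenvatinib, a cancer drug that blocks several receptor tyrosine kinases, the VEGF receptors of blood vessels among them. The series title places the work in colitis. Strain, sex, age, drug dose, length of treatment and whether colitis was induced are not stated in the labels for either group.

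Phase II enzymes attach a polar group to a drug, hormone, bile acid or dietary compound, often after a cytochrome P450 has acted on it, so that the product dissolves in water and can be pumped out of the cell. Glucuronosyltransferases sit in the membrane of the endoplasmic reticulum and use UDP-glucuronic acid. Glutathione transferases use glutathione, and sulfotransferases use PAPS, the activated form of sulfate. In the gut the epithelium is the main site of these enzymes, and several of their genes are known targets of the transcription factors NRF2, AHR, PXR and FXR. Levels are given in FPKM, fragments scaled to gene length and library size. A difference is the lenvatinib mean minus the DMSO mean of log2(FPKM + 1), a scale on which changes of low genes come out too small.

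Libraries 2 and 3 of each group were close to each other: their variation beyond counting noise was 3.21% in DMSO and 2.88% in lenvatinib, against 10.0 to 16.0% for every other pair of libraries. Library DMSO 1 alone held transcripts of the Y-linked gene Ddx3y (6.54 FPKM, listed at 0 in the other 5), with Xist at 0.00147 FPKM against 15.9 to 19.8. This is the pattern of male tissue in DMSO 1 and of female tissue in the other 5 libraries, and the fit held no term for sex. The labels call the libraries biological replicates but do not tie them to animals. Each p-value therefore reflects only how far these 6 libraries spread, and part of that spread may be technical. The colonocyte gene Car1 measured 7590 to 10360 FPKM, while the distal colon gene Hoxb13 was listed at 0 in 5 libraries and at 0.0184 FPKM in 1. Small intestinal transcripts differed between the groups: 11 of 13 tested markers rose, beside 1.10% of all tested genes called higher. Of these markers Mmp7, Sis, Apoa1, Mttp, Defa24 and Naaladl1 had DMSO means below 1 FPKM. They reached the mean of 1 FPKM needed for the test only through lenvatinib libraries, so the filter partly sets that count. The summed level of the 18 listed ranged from 38.0 to 42.4 FPKM in DMSO and from 356 to 498 in lenvatinib. Fabp1, Gata4 and Lct of that list were each below 1 FPKM in all 6 libraries. The part of these transcripts in the differences described next was not tested.

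The 2 members that passed the test belong to gene families with close copies, so the coding sequences show how far each can be told from its relatives. The stretches are the 90 coding bases in which Gstp3 differs most from Gstp1, at coding positions 286 to 375 of GENCODE M21 transcripts, and capitals mark each base that differs from Gstp1.
Gstp1: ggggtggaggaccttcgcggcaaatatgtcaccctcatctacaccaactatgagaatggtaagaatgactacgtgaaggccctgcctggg
Gstp2: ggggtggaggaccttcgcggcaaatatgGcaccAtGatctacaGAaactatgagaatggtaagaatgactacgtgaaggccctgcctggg
Gstp3: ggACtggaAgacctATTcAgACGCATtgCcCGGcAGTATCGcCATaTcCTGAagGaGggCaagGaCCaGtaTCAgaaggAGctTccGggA
Gstp3 had 47 differing bases in this stretch and Gstp2 had 5. Over the whole coding sequence Gstp1 and Gstp2 were 98.1% identical, and Gstp1 and Gstp3 were 73.6% identical. Reads of Gstp1 and Gstp2 could therefore be split between the copies by the counting step, and their single values are uncertain. Gstp3 is less like either copy (73.6 and 74.4% identity).

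The Ugt1a genes each have a first exon of their own and share the remaining exons. Ugt1a1 and Ugt1a6a were identical over the last 738 coding bases, of 1605 and 1593 in all. The stretch below lies in the gene-specific part, at coding positions 604 to 693 of Ugt1a6a, and capitals mark bases that differ from Ugt1a6a.
Ugt1a6a: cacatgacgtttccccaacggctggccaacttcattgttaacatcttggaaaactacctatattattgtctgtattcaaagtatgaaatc
Ugt1a1: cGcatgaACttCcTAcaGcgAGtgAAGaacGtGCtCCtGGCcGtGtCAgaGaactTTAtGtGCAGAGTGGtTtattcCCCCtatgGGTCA
Ugt1a7c: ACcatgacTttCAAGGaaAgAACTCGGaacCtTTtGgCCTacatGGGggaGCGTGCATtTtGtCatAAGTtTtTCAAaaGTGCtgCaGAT
Here Ugt1a1 differed at 48 of 90 bases and Ugt1a7c at 54. Ugt1a6a and Ugt1a6b were 98.4% identical throughout, and Ugt1a6b was read at 1 to 11 reads per library. How reads in the shared exons were assigned is not given in the sources used here, so levels of single Ugt1a genes carry that uncertainty.

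The Gstp genes lie side by side on chromosome 19, and their start regions show how alike their control sequences are. Promoter windows of 300 bases that span the start are given from RefSeq on GRCm38.p6, a build other than that of the deposited values. Capitals mark the core of the antioxidant response element (TGACNNNGC or TGAGNNNGC, the motif of NRF2 and related factors) and the core of the dioxin response element (GCGTG, the motif of AHR), each searched on both strands.
Gstp1 (chr19:4037863-4038162, minus strand): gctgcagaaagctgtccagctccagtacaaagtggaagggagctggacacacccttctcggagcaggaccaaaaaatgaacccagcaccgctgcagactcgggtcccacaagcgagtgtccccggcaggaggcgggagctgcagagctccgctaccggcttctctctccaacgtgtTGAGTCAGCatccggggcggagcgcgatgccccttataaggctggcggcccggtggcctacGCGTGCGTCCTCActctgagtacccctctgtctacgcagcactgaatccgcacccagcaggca
Gstp2 (chr19:4042172-4042471, minus strand): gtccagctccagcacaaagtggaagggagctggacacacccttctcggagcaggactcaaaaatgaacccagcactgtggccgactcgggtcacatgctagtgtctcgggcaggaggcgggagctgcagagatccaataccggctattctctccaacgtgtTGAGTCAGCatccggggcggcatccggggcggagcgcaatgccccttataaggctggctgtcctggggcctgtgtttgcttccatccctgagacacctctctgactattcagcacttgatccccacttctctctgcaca
Gstp3 (chr19:4059398-4059697, minus strand): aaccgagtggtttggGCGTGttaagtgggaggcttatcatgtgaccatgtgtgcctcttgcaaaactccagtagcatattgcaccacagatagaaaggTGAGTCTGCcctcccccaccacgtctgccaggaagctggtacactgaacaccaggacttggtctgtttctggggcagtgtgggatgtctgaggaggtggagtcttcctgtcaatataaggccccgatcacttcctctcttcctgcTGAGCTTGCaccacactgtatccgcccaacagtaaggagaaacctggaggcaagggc
Ugt1a6a (chr1:88134559-88134858, plus strand): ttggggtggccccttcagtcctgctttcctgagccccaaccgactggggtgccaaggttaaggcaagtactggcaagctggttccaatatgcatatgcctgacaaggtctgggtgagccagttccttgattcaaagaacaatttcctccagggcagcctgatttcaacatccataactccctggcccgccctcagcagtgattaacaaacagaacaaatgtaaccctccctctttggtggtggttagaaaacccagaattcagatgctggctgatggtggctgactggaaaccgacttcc
Gstp1 and Gstp2 held the same antioxidant element letters, TGAGTCAGC, 74 and 89 bases before their starts. Gstp3 held TGAGTCTGC 152 bases and TGAGCTTGC 7 bases before its start, and the window of Ugt1a6a held neither motif. In Gstp1 a second antioxidant match on the opposite strand overlaps the dioxin match. Among 31 tested members with a window in the table, 13 (41.9%) held an antioxidant element core, against 30.8% of all 27025 genes with a window. The dioxin core was found in 29% of these members and 35.2% of all genes, and the nuclear receptor half-site AGGTCA in 19.4% and 18.1%. These are matches of letters and show no binding.

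Of the 53 members, 34 reached a mean of 1 FPKM over the 6 libraries and were tested. In limma with Benjamini-Hochberg adjustment over all 11774 genes tested, 2 members rose and none fell in the lenvatinib libraries: Ugt1a6a and Gstp3. The background for this count is 1.10% of all tested genes called higher and 0.934% called lower, 2.03% in all. An unadjusted p below 0.05 was found for 4 members, against 22.0% of all tested genes. The median difference of the 34 members was 0.17, against −0.07 for all genes tested, and 30 members had a difference above 0, against 36.1% of all tested genes. Levels in the groups did not overlap for 4 members, all with lenvatinib higher (background 10.0%), and for no member with lenvatinib lower (background 17.5%).

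**Figure D1:**
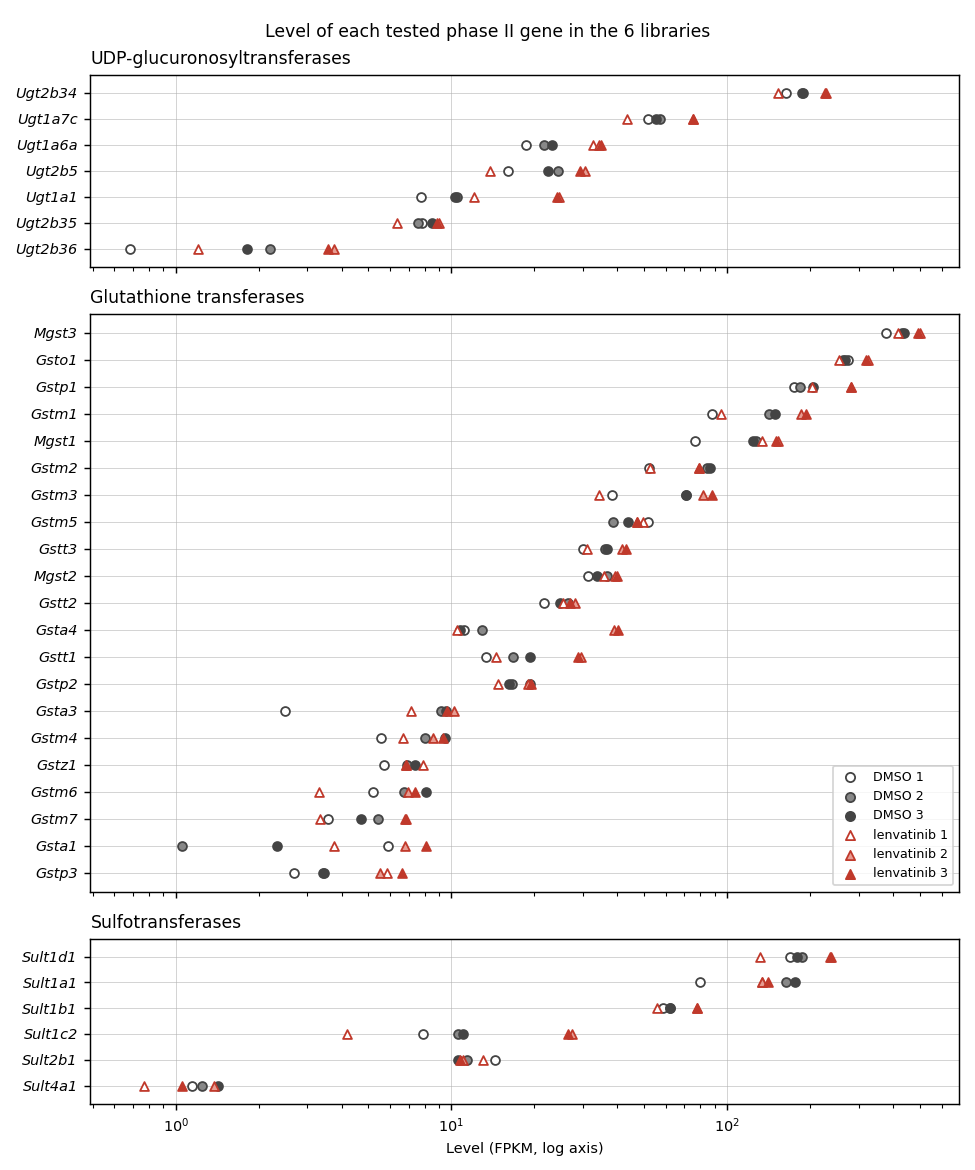
Level of each of the 34 tested members in each library, in FPKM on a log axis, by enzyme class; circles are DMSO and triangles lenvatinib libraries, open symbols are libraries numbered 1. Levels run from Sult4a1 (mean 1.17 FPKM) to Mgst3 (mean 442 FPKM), and lenvatinib 2 and 3 (filled triangles) lie right of every DMSO circle for 25 of the 34 genes, while lenvatinib 1 does so for 5.

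The glucuronosyltransferases were led by Ugt2b34, which held 56.1 to 61.5% of the summed FPKM of the class in each library, followed by Ugt1a7c and Ugt1a6a. These 3 together made up 83.2 to 87.8%. Ugt1a6a, an enzyme for small planar phenols, measured 18.7, 21.7 and 23.1 FPKM in DMSO libraries 1 to 3, against 32.6, 34.2 and 35.0 in lenvatinib libraries 1 to 3. All 3 lenvatinib libraries were above all 3 DMSO libraries, and the spread within each group was small beside the gap. Ugt1a6a rose by 0.66 on the log2 scale (SE 0.0872; limma adjusted p = 0.0215), from 21.2 ± 2.25 to 33.9 ± 1.23 FPKM (SD, n = 3), a ratio of 1.60. The call was kept without DMSO 1 or lenvatinib 1 and lost without DMSO 2, DMSO 3, lenvatinib 2 or lenvatinib 3 (limma adjusted p = 0.0696 to 0.123). With libraries 2 and 3 averaged into 1 sample the adjusted p was 0.440, and the difference stayed between 0.58 and 0.73 in all 15 alternatives.

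Ugt1a1, the enzyme that conjugates bilirubin, measured 7.78, 10.5 and 10.3 FPKM in DMSO libraries 1 to 3, against 12.0, 24.6 and 24.2 in lenvatinib libraries 1 to 3. The groups did not overlap, but lenvatinib 1 was nearer to DMSO than to the other lenvatinib libraries. The difference of 0.96 (SE 0.281, limma adjusted p = 0.143) did not pass, and it passed without lenvatinib 1 (1.28, limma adjusted p = 0.00189). That fit rests on the near-identical lenvatinib 2 and 3, and 4479 of all 11774 genes passed it. Its p-values thus reflect mainly the small spread between those 2 libraries, here and for the genes below. Ugt1a7c, from the same locus, measured 51.6, 57.0 and 55.4 FPKM in DMSO and 43.5, 75.2 and 75.1 in lenvatinib. Its lenvatinib 1 library was the lowest of all 6 and the other 2 the highest, so the groups overlapped (difference 0.19, SE 0.215). The Ugt1a genes thus showed the same order of libraries only in part: all 3 were highest in lenvatinib 2 and 3, while lenvatinib 1 lay above DMSO for Ugt1a6a and Ugt1a1 and below it for Ugt1a7c.

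The Ugt2b genes conjugate steroids, bile acids and fatty acids. Ugt2b34 measured 164, 186 and 189 FPKM in DMSO libraries 1 to 3, against 153, 227 and 229 in lenvatinib libraries 1 to 3 (difference 0.16, SE 0.167). Ugt2b5 measured 16.1, 24.3 and 22.3 FPKM in DMSO and 13.9, 30.5 and 29.4 in lenvatinib. Both genes had their lowest level in lenvatinib 1 and the next lowest in DMSO 1. Ugt2b36 was low, at 0.683, 2.21 and 1.82 FPKM in DMSO and 1.20, 3.76 and 3.55 in lenvatinib, on 49 to 277 reads per library (difference 0.55, SE 0.374). Ugt2b35 measured 7.57 to 8.47 FPKM in DMSO and 6.35 to 9.05 in lenvatinib, a difference of 0.0083, which changed sign in several alternatives. None of the 4 Ugt2b genes passed.

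**Figure D2:**
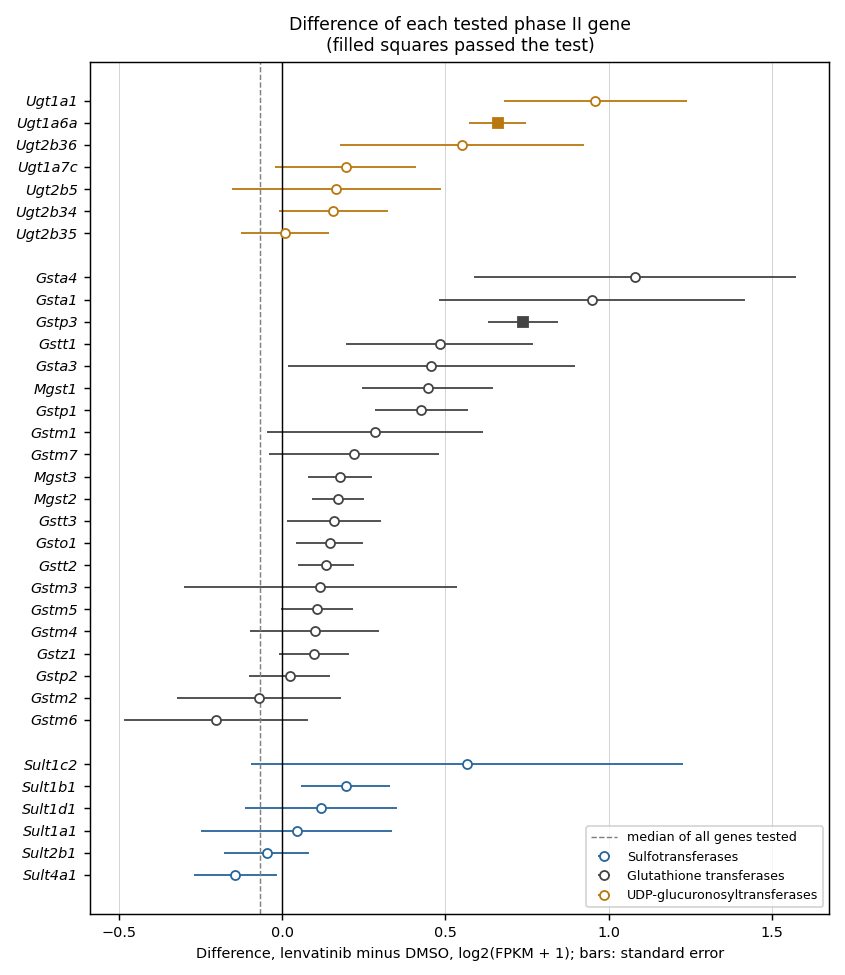
Difference of each tested member, lenvatinib minus DMSO, in units of log2(FPKM + 1), with standard errors as bars; filled squares passed the test and open circles did not, and the dashed line is the median of all genes tested (−0.07). Ugt1a6a and Gstp3 have smaller differences than Ugt1a1, Gsta4 or Gsta1 but shorter bars.

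Among glutathione transferases the microsomal enzyme Mgst3, which also acts on lipid peroxides, was the most abundant of all 53 members, with a mean of 442 FPKM. It was followed by Gsto1 and Gstp1, and these 3 held 57.4 to 64.0% of the class. Mgst3 measured 378, 429 and 438 FPKM in DMSO libraries 1 to 3, against 418, 500 and 491 in lenvatinib libraries 1 to 3 (difference 0.18, SE 0.0979). Gsto1, an omega-class enzyme with thioltransferase activity, measured 275, 264 and 267 FPKM in DMSO and 255, 324 and 318 in lenvatinib. For Gsto1, lenvatinib 1 was the lowest library and the other 2 the highest. Neither gene passed.

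In the pi class, Gstp3 measured 2.70, 3.46 and 3.43 FPKM in DMSO libraries 1 to 3, against 5.85, 5.49 and 6.63 in lenvatinib libraries 1 to 3, on 118 to 296 reads per library. Every lenvatinib library was above every DMSO library, lenvatinib 1 included. Gstp3 rose by 0.74 (SE 0.107; limma adjusted p = 0.0284), from 3.20 ± 0.434 to 5.99 ± 0.585 FPKM (SD, n = 3), a ratio of 1.87. The call was kept without DMSO 1 or lenvatinib 1 and lost without DMSO 2, DMSO 3, lenvatinib 2 or lenvatinib 3 (limma adjusted p = 0.101 to 0.137). It was also lost with libraries 2 and 3 averaged (0.428) and by voom on recovered reads (0.0516), and the difference lay between 0.65 and 0.91 in all 15 alternatives. Gstp1, the main pi-class enzyme, measured 175, 184 and 204 FPKM in DMSO and 203, 280 and 282 in lenvatinib (difference 0.43, SE 0.143; limma adjusted p = 0.173). Lenvatinib 1 lay just inside the DMSO range for Gstp1, and the difference passed without that library (0.58, limma adjusted p = 0.00388). That fit again rests on the near-identical lenvatinib 2 and 3. Gstp2 measured 16.1 to 19.2 FPKM in DMSO and 14.7 to 19.5 in lenvatinib, a difference of 0.02 that changed sign in 6 alternatives. Of the 3 neighbouring Gstp genes, only Gstp3 had groups that did not overlap, and whether its difference departs from that of its neighbours was not tested.

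The alpha class, known for acting on lipid peroxidation products, held the largest difference of any member. Gsta4, the enzyme for the lipid aldehyde 4-hydroxynonenal, measured 11.1, 12.9 and 10.8 FPKM in DMSO libraries 1 to 3, against 10.4, 38.8 and 40.1 in lenvatinib libraries 1 to 3. Lenvatinib 1 was below all DMSO libraries, and lenvatinib 2 and 3 were more than 3-fold above their DMSO counterparts (ratio 3.34). The difference of 1.08 (SE 0.493, limma adjusted p = 0.256) did not pass. Without lenvatinib 1 it was 1.69 (limma adjusted p = 3.0e-04), with the near-identical lenvatinib 2 and 3 as the only lenvatinib libraries. Gsta1 measured 5.87, 1.06 and 2.33 FPKM in DMSO and 3.76, 6.81 and 8.09 in lenvatinib, so that DMSO 1 was above lenvatinib 1. Gsta1 and Gsta2 are 98.0% identical in coding sequence, and Gsta2 was read at 2 to 10 reads per library. Gsta3 was low in DMSO 1 alone, at 2.49 FPKM, against 7.15 to 10.2 in the other 5 libraries. Neither Gsta1 nor Gsta3 passed.

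The mu class forms a cluster of adjacent genes, and none of its members had groups without overlap. Gstm1 measured 88.0, 142 and 149 FPKM in DMSO libraries 1 to 3, against 94.9, 185 and 194 in lenvatinib libraries 1 to 3. Gstm2 measured 51.9, 84.5 and 86.9 FPKM in DMSO and 52.6, 79.2 and 78.9 in lenvatinib. Gstm3 measured 38.3, 70.8 and 70.9 FPKM in DMSO and 34.2, 81.5 and 87.9 in lenvatinib. In all 3 genes both libraries numbered 1 were below the other 4, and the differences between groups were 0.29 (SE 0.331), −0.07 (SE 0.251) and 0.12 (SE 0.418). Gstm4, Gstm6 and Gstm7 ranged from 3.32 to 9.45 FPKM and were likewise lowest in a library numbered 1. Gstm5, the mu-class member least like the rest in coding sequence (69.7 to 73.2% identity), had the opposite order in DMSO, with 51.7, 38.4 and 43.7 FPKM, and 47.0 to 49.4 in lenvatinib. None of the 7 passed.

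Among the theta, zeta and remaining microsomal enzymes none passed either. Gstt1, which acts on small halogenated compounds, measured 13.3, 16.8 and 19.4 FPKM in DMSO and 14.5, 29.6 and 28.7 in lenvatinib (difference 0.48, SE 0.287). Gstt2 and Gstt3 measured 21.8 to 28.0 and 30.0 to 43.1 FPKM over all 6 libraries. Mgst1, the microsomal enzyme of the endoplasmic reticulum and mitochondria, measured 76.6, 127 and 124 FPKM in DMSO and 133, 153 and 151 in lenvatinib. Its groups did not overlap, and most of the spread was the low value of DMSO 1 (difference 0.45, SE 0.201; limma adjusted p = 0.252). Mgst2 measured 31.3 to 36.6 FPKM in DMSO and 35.6 to 40.0 in lenvatinib (difference 0.17, SE 0.0804). Gstz1, which takes part in tyrosine breakdown, measured 5.71 to 7.39 FPKM in DMSO and 6.83 to 7.88 in lenvatinib.

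Sulfotransferases were dominated by Sult1d1, Sult1a1 and Sult1b1, which held 91.8 to 94.8% of the class. Sult1d1, an enzyme for catecholamines and related phenols in rodents, measured 170, 187 and 180 FPKM in DMSO libraries 1 to 3, against 131, 238 and 235 in lenvatinib libraries 1 to 3 (difference 0.12, SE 0.234). Sult1b1, which sulfates thyroid hormone and phenols in the gut, measured 58.4, 61.9 and 61.9 FPKM in DMSO and 55.8, 78.0 and 77.6 in lenvatinib (difference 0.19, SE 0.136). In both, lenvatinib 1 was the lowest library and lenvatinib 2 and 3 were the highest. Sult1a1, the main phenol sulfotransferase, measured 79.7, 163 and 176 FPKM in DMSO and 133, 134 and 140 in lenvatinib. Here the spread lay in DMSO: without DMSO 1 the difference turned from 0.04 to −0.31. Sult1c2 had the widest spread, with 7.90, 10.5 and 11.0 FPKM in DMSO and 4.17, 27.3 and 26.5 in lenvatinib (difference 0.57, SE 0.661; limma adjusted p = 0.609). Lenvatinib 1 was the lowest library for Sult1c2 and the other 2 the highest. Without lenvatinib 1 the difference was 1.38 (limma adjusted p = 0.00186), in a fit that rests on the near-identical lenvatinib 2 and 3. Sult2b1, which sulfates cholesterol and other sterols, measured 10.6 to 14.4 FPKM in DMSO and 10.8 to 13.1 in lenvatinib. Sult4a1, a form known from brain, measured 1.14 to 1.42 and 0.769 to 1.38 FPKM. No sulfotransferase passed, and no sulfotransferase had groups that did not overlap.

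**Figure D3:**
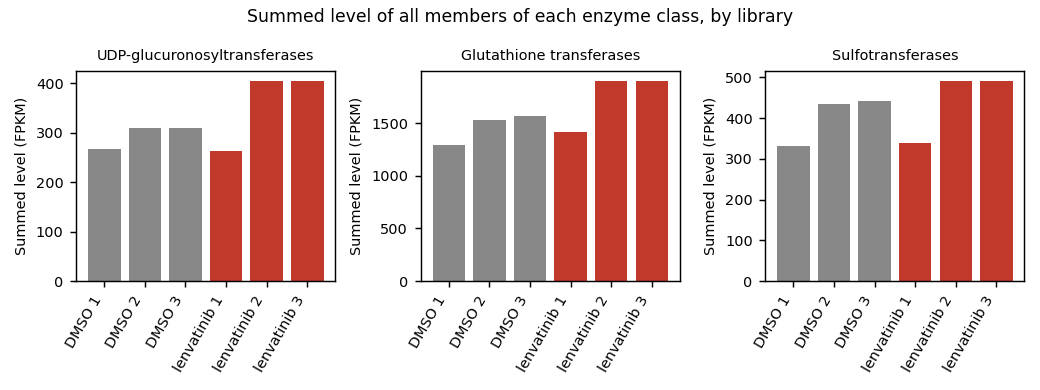
Summed FPKM of all members of each class in each library; grey bars are DMSO and red bars lenvatinib, without error bars since each bar is 1 library. In each class lenvatinib 1 is close to DMSO 1 (ratios 0.986, 1.09 and 1.02) and lenvatinib 2 and 3 are the highest bars.

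Summed over members, glucuronosyltransferases measured 267, 310 and 310.2 FPKM in DMSO libraries 1 to 3, against 263, 405 and 406 in lenvatinib libraries 1 to 3. Glutathione transferases summed to 1292, 1527 and 1571 FPKM in DMSO and to 1411, 1898 and 1903 in lenvatinib. Sulfotransferases summed to 332, 435 and 441 FPKM in DMSO and to 338, 490.1 and 492 in lenvatinib. The ratio of the lenvatinib to the DMSO mean was 1.21, 1.19 and 1.09 in that order. Between libraries numbered 1 the ratio was 0.986, 1.09 and 1.02, and between libraries numbered 2 and 3 it was 1.31, 1.23 and 1.12. In bulk tissue a change in the share of the cells that carry these transcripts and a change in RNA per cell cannot be told apart. Markers of epithelium as a whole summed to 6782 to 7190 FPKM in DMSO and to 6367 to 6524 in lenvatinib, with 0 of 8 passing. Colonocyte markers summed to 13490, 14310 and 14680 FPKM in DMSO and to 12380, 17240 and 17220 in lenvatinib, with 0 of 12 passing. As in the enzyme classes, lenvatinib 2 and 3 had the highest colonocyte marker sums, and both libraries numbered 1 were below the other 4. Of the fibroblast markers 5 of 8 fell, of the leukocyte markers 3 of 8, and of the goblet cell markers 1 of 8. Goblet cell markers summed to 10760 FPKM in DMSO 1, against 4619 and 4825 in the other DMSO libraries and 2909 to 3928 in lenvatinib. Of 3 tested hepatocyte markers none passed, and the summed level of that list was 11.8 to 22.7 FPKM in DMSO and 18.0 to 39.3 in lenvatinib. Most of that sum was Ttr and Cyp2e1, and Cyp2e1 measured 2.82 to 3.67 FPKM in DMSO and 5.50 to 10.6 in lenvatinib, without overlap (limma adjusted p = 0.0738). Alb and Serpina1a of the same list measured at most 0.0996 and 0.0260 FPKM. The part of these shifts in the members' levels was not tested.

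The libraries thus differed in which of them were high. Lenvatinib 2 and 3 were both above every DMSO library for 25 of the 34 tested members (background 19.7%) and both below every DMSO library for none (background 46.6%). Lenvatinib 1 was above every DMSO library for 5 members, Ugt1a6a, Ugt1a1, Gstp3, Mgst1 and Gstz1, within the DMSO range for 15 and below it for 14 (backgrounds 32.8%, 38.3% and 28.9%). DMSO 1 was the lowest DMSO library for 27 of the 34 (background 49.3%). When lenvatinib 1 was left out, 15 members passed as higher and none as lower, beside 9.85% of all tested genes called higher and 28.2% called lower. In that comparison the 15 were Ugt1a1, Ugt1a6a, Ugt1a7c, Ugt2b34, Ugt2b36, Gsta4, Gstm7, Gsto1, Gstp1, Gstp3, Gstt1, Mgst3, Sult1b1, Sult1c2 and Sult1d1. Because lenvatinib 2 and 3 were near-identical, that test sets a very small spread against the difference, and 4479 of all 11774 genes passed it.

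**Figure D4:**
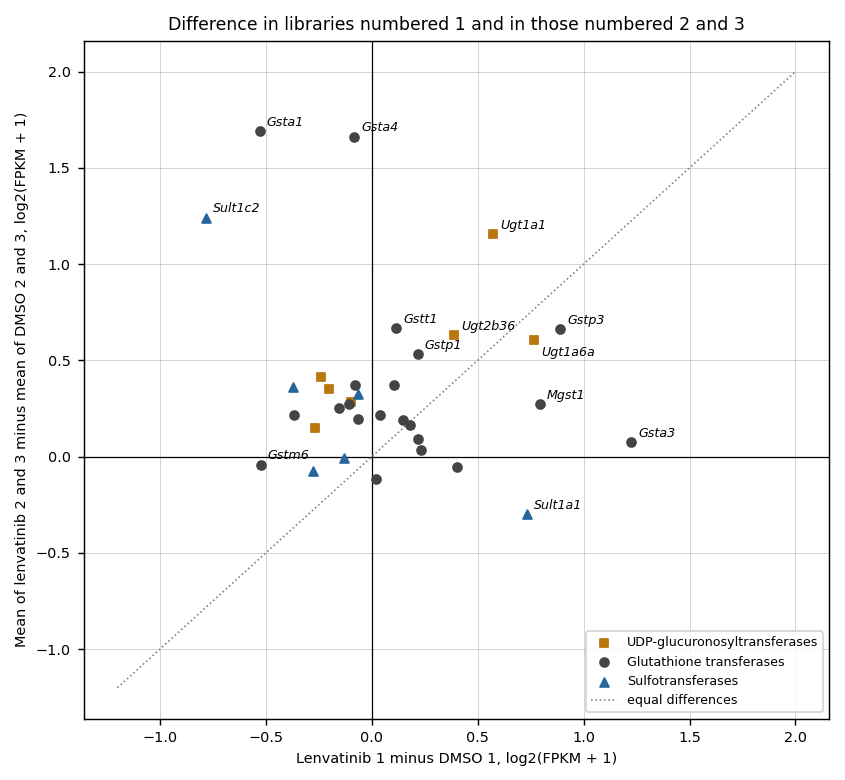
Difference between the libraries numbered 1 (horizontal) and between the means of libraries 2 and 3 (vertical) for each tested member, both as lenvatinib minus DMSO in units of log2(FPKM + 1). Ugt1a6a and Gstp3 lie near the dotted line of equal differences, Gsta1, Gsta4 and Sult1c2 are high only on the vertical axis, and Gsta3, Mgst1 and Sult1a1 lie below the line, with a larger difference in libraries numbered 1.

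Between same-numbered libraries the members fell into different patterns. Ugt1a6a differed by 0.77 in libraries numbered 1 and by 0.61 in libraries 2 and 3, and Gstp3 by 0.89 and 0.66. Gsta4 differed by −0.08 and 1.66, Gsta1 by −0.53 and 1.69, and Sult1c2 by −0.78 and 1.24. The difference was larger in libraries numbered 1 for Gsta3 (1.22 and 0.07), Mgst1 (0.79 and 0.27) and Sult1a1 (0.73 and −0.30). A difference in libraries numbered 1 sets a DMSO library with Y-linked transcripts against a lenvatinib library without them. Treatment and sex cannot be told apart there.

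The remaining 19 members stayed below a mean of 1 FPKM and were not tested. None of them exceeded 20 reads in any library, and Sult1e1, the estrogen sulfotransferase, and Ugt2a3 were listed at 0 in all 6. Ugt2a1, Ugt2b37, Gsta5 and Sult6b2 were above 0 in 1 library each, on at least 1 read, since such a value does not fix the count. The most abundant of the 19 were Gsto2, with 0.102 to 0.177 FPKM in DMSO and 0.193 to 0.295 in lenvatinib, and Sult5a1, with 0.0478 to 0.130 and 0.115 to 0.307. The others were Ugt1a2, Ugt1a5, Ugt1a6b, Ugt1a8, Ugt1a9, Ugt2b1, Ugt2b38, Ugt3a2, Gsta2, Gstt4 and Sult1c1. Levels did not overlap between the groups for Gsto2 and Ugt1a5, the latter on 0 to 2 reads per library. With no filter on low values 51 of the 53 members entered the fit, and limma called none of them after adjustment, with an unadjusted p below 0.05 for 4.

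Supply of the cofactors was examined with fixed lists. None of the 5 genes for UDP-glucuronic acid and none of the 8 for PAPS passed (median differences 0.06 and 0.06). Ugdh, the dehydrogenase that makes UDP-glucuronic acid, measured 215, 318 and 312 FPKM in DMSO and 217, 336 and 331 in lenvatinib, with both libraries numbered 1 low. Papss2, which makes PAPS, measured 448, 568 and 589 FPKM in DMSO and 447, 639 and 658 in lenvatinib, again with both libraries numbered 1 low. The PAPS gene with the smallest p was Slc35b3, a PAPS transporter of the Golgi, at 15.4 to 16.0 FPKM in DMSO and 16.2 to 18.7 in lenvatinib (limma adjusted p = 0.251). Of 13 tested genes of glutathione supply and recycling 1 rose and none fell. This was Ggt1, the surface enzyme that starts the breakdown of glutathione and its conjugates, with 2.44, 1.35 and 1.97 FPKM in DMSO and 6.84, 6.26 and 6.74 in lenvatinib (difference 1.40, SE 0.143; limma adjusted p = 0.00896). All 3 lenvatinib libraries were more than 2-fold above any DMSO library for Ggt1, and the call was lost without DMSO 3, lenvatinib 2 or lenvatinib 3 (limma adjusted p = 0.0519 to 0.0674). The peptidases of the next step, Anpep and Dpep1, were higher without overlap and did not pass. Anpep measured 8.48 to 10.8 FPKM in DMSO and 18.4 to 59.4 in lenvatinib, and Dpep1 33.2 to 41.6 and 46.7 to 63.6. Chac2 of the same list was lower without overlap, at 5.78 to 5.98 FPKM in DMSO and 4.13 to 4.735 in lenvatinib (limma adjusted p = 0.0815). Of the 13 tested genes, 4 were higher and 1 lower without overlap (backgrounds 10.0% and 17.5%), and the median difference was 0.06. Gclc, the rate-limiting subunit of glutathione synthesis, measured 41.4, 38.7 and 37.5 FPKM in DMSO and 42.8, 80.3 and 79.4 in lenvatinib (difference 0.71, SE 0.244; limma adjusted p = 0.179).

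**Figure D5:**
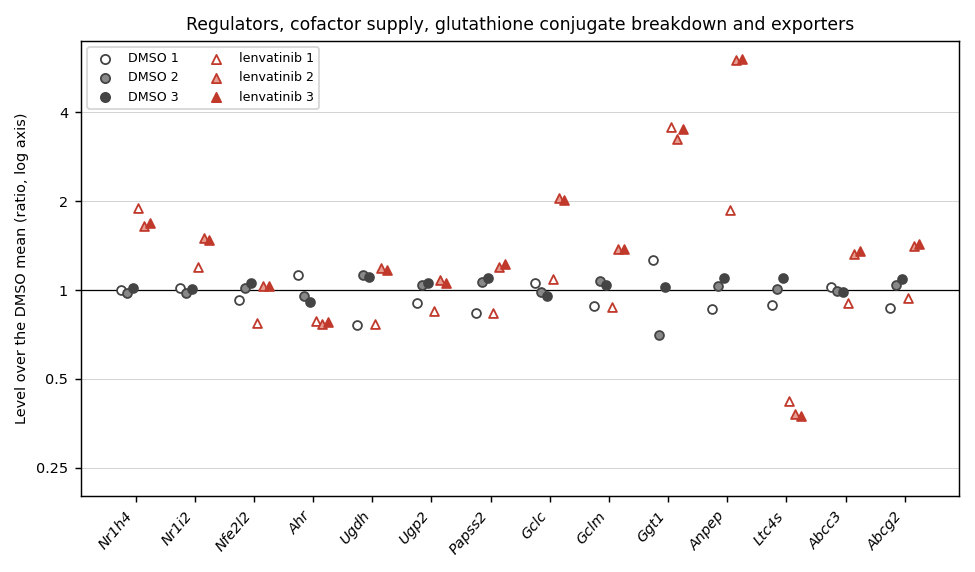
Level of 14 genes of regulation, cofactor supply, conjugate breakdown and export in each library, as a ratio to the DMSO mean on a log axis; circles are DMSO and triangles lenvatinib. Nr1h4 and Ggt1 are higher and Ltc4s is lower in all 3 lenvatinib libraries, while Abcc3 and Abcg2 are above the DMSO range only in lenvatinib 2 and 3.

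Of 8 tested genes on a list of conjugate exporters none passed. This list also held the uptake carriers Slco2a1 and Slco2b1 and the drug pump Abcb1a. Abcc1, a pump for glutathione conjugates, had the smallest p, with 5.67 to 6.57 FPKM in DMSO and 5.06 to 5.42 in lenvatinib, lower without overlap (limma adjusted p = 0.236). Abcg2 and Abcc3, pumps for sulfate and glucuronide conjugates, measured 29.8 to 37.5 and 80.4 to 83.7 FPKM in DMSO and 32.2 to 49.0 and 73.8 to 111 in lenvatinib. None of 5 hydrolases that free conjugates passed. The arylsulfatase Arsa measured 6.69 to 7.85 FPKM in DMSO and 8.87 to 10.1 in lenvatinib, higher without overlap (limma adjusted p = 0.143), and the glucuronidase Gusb 6.38 to 6.86 and 4.27 to 6.59 FPKM. A further list held conjugating enzymes outside the symbol rule and also Clic1, Clic4, Alox5ap and Ptges, which are not conjugating enzymes. Of its 12 tested genes, 1 fell and none rose. Ltc4s, which joins glutathione to leukotriene A4 in leukocytes, fell from 4.01, 4.57 and 4.97 FPKM in DMSO to 1.90, 1.71 and 1.69 in lenvatinib (difference −0.99, SE 0.0898; limma adjusted p = 0.00565; 0.0530 without DMSO 2). The summed level of the leukocyte markers was 173 to 207 FPKM in DMSO and 72.1 to 121 in lenvatinib. Those markers did not move as 1: C1qa, Csf1r and Adgre1 fell, while the groups overlapped for Ptprc and Cd3e. Cd3e was highest in lenvatinib 1, at 13.4 FPKM against 6.23 to 9.88 in DMSO. The part of leukocytes in the level of Ltc4s was not tested.

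Of 18 tested transcription factors that act on these genes or on intestinal identity, 1 rose and none fell. Nr1h4, which encodes the bile acid receptor FXR, measured 32.9, 32.1 and 33.3 FPKM in DMSO and 62.1, 54.3 and 55.5 in lenvatinib (difference 0.79, SE 0.0687; limma adjusted p = 0.00539). The groups did not overlap, and the call was lost without DMSO 2 or DMSO 3 (limma adjusted p = 0.0507 and 0.0503). Nr1i2, for the drug receptor PXR, measured 21.0, 20.2 and 21.0 FPKM in DMSO and 24.8, 31.1 and 30.7 in lenvatinib, without overlap (difference 0.45, SE 0.096; limma adjusted p = 0.0827). Ahr measured 4.30 to 5.30 FPKM in DMSO and 3.61 to 3.68 in lenvatinib, also without overlap (limma adjusted p = 0.143). Nfe2l2, for NRF2, measured 65.7 to 75.5 and 55.0 to 73.8 FPKM. None of the 3 passed.

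Of 19 tested NRF2 targets outside the enzyme families none passed (median difference −0.06), nor did any of 6 tested AHR and PXR targets (median 0.28). Those 6 differences were 0.71 for Cyp3a13, 0.58 for Cyp2c55, 0.39 for Abcb1a, 0.17 for Cyp2c65, −0.05 for Tiparp and −0.10 for Nqo1. FXR targets were not listed as a group, so FXR activity was not examined. Fabp6, an ileal bile acid binding protein and known FXR target, is 1 of the 11 small intestinal markers that rose. It measured 1.44 to 2.28 FPKM in DMSO and 148 to 161 in lenvatinib (limma adjusted p = 2.0e-05). Slc10a2, the ileal bile acid uptake carrier, is another, with 1.185 to 2.955 FPKM in DMSO and 6.68 to 12.2 in lenvatinib (limma adjusted p = 0.0346). Fabp6 and Slc10a2 were picked after their values were seen, and the part of FXR in them was not tested. The NRF2 target with the smallest p was Txnrd1, a thioredoxin reductase. It measured 82.9, 91.2 and 91.9 FPKM in DMSO and 75.8, 70.0 and 71.4 in lenvatinib, lower without overlap (difference −0.29, SE 0.0672, limma adjusted p = 0.0986). The NRF2 list went both ways: 2 tested genes were higher and 3 lower without overlap (backgrounds 10.0% and 17.5%). Gclc, described above, is among the higher and Me1 among the lower. Nqo1, a target of both NRF2 and AHR, measured 19.9, 31.2 and 28.8 FPKM in DMSO and 16.3, 29.8 and 29.6 in lenvatinib, with both libraries numbered 1 low as in the mu class. Cyp3a13, a cytochrome P450 of the PXR list, measured 26.2 to 29.5 FPKM in DMSO and 35.7 to 51.4 in lenvatinib, without overlap (difference 0.71, SE 0.149; limma adjusted p = 0.0809). Cyp1a1, the most used marker of AHR activity, measured 0.208 to 0.636 FPKM over the 6 libraries and was not tested. Also below the filter, Ahrr of the same list measured 0.692 to 0.775 FPKM in DMSO and 0.302 to 0.392 in lenvatinib, lower without overlap. Cyp3a25 was higher without overlap, at 0 in DMSO and 0.104 to 0.767 FPKM in lenvatinib.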

How the data were processed

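RNA from mouse colon was measured in 6 libraries, 3 DMSO and 3 lenvatinib. The deposited values are FPKM that the authors computed per gene. HTSeq counting and the mouse build GRCm39 come from the submitters' processing notes. Aligner, gene annotation, strand setting and counting mode: not given in the sources used here. Every value was explained by whole reads, whole gene lengths and 1 total per library for 23950 of 23951 genes above 0 (99.996%, within 0.01 reads), with totals of 37996789 to 39623411 reads. The smallest whole reads that fitted were taken, and a gene above 0 in only 1 library can always be fitted in this way.

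The 11774 genes whose mean reached 1 FPKM were fitted on log2(FPKM + 1), pseudocount 1, by limma 3.58.1 in R 4.3.3, two-sided, with trended and robust variance moderation. Benjamini-Hochberg adjustment ran over all of them (threshold 0.05). The script was tested on simulated data with independently drawn libraries of equal spread. That setting lacks the near-identical libraries and the sex difference of these data, so it does not show how the test behaves here. In all, 15 alternatives were run, 1 of them (voom on recovered reads) chosen after seeing the data. The members, lists and tests were chosen with earlier results of these data known. Named were called members, the 5 most abundant and 4 lowest-p uncalled members of each class, members without overlap whose means differed at least 2-fold, and called or up to 3 lowest-p genes of the lists, besides cofactor enzymes and transcription factors. Other members are described for completeness. Nqo1, Abcc3, Cyp1a1, Cyp2c55, Tiparp, Ahrr, Cyp3a25 and the marker genes named singly were chosen after their values were seen. Promoters came from RefSeq GRCm38.p6 (31 of 34 tested members matched) and coding sequences from GENCODE M21, compared by global pairwise alignment.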

Additional observations from a re-analysis of the deposited data

How the results depend on the processing

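Pseudocount 0.1, quantile normalization, median-ratio scaling and a fit with no trended or robust prior each kept both member calls, and no member was called lower in any of the 15 alternatives. With no filter on low values 140 genes were called and 0 members. Libraries 2 and 3 averaged within each group gave 3 calls and 0 members, and a random block for them gave 46 and 0. With voom on recovered reads, chosen after seeing the data, 1 member (Ugt1a6a) was called. Leaving out each library in turn gave 45 to 4479 calls over all genes and 0 to 15 members higher, the upper values without lenvatinib 1. At an unadjusted p below 0.05, limma found 4 members with no filter, 2 with averaging and 4 with the random block. Over all tested genes, same-numbered libraries did not deviate together (correlations −0.196, −0.159 and −0.151). Libraries 2 and 3 were near-identical, so these values mostly repeat 1 contrast and cannot decide whether the numbers pair libraries. Of the 34 tested members, 27 were lowest in DMSO 1 within DMSO (background 49.3%). Within lenvatinib, 30 were lowest in lenvatinib 1 (background 28.7%). With a replicate block 29 genes and 0 members were called, and 8 members had an unadjusted limma p below 0.05.

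Small differences changed sign. Gstm2 was 0.0061 with median-ratio scaling, and Sult2b1 was 0.031 with quantile normalization and 0.023 with median-ratio scaling. With libraries 2 and 3 averaged, Gstp2 was −0.074, Sult1d1 −0.0028 and Ugt2b35 −0.061, and with the random block Gstp2 was −0.066 and Ugt2b35 −0.056. Over leave-one-out fits Gsta3 ranged from −0.066 to 0.73, Gstm2 from −0.31 to 0.12, Gstm3 from −0.17 to 0.54, Gstm4 from −0.092 to 0.25 and Gstm6 from −0.37 to 0.10. Gstp2 ranged from −0.045 to 0.14, Sult1a1 from −0.31 to 0.25, Sult1d1 from −0.026 to 0.40, Sult2b1 from −0.13 to 0.075, Ugdh from −0.13 to 0.26, Ugt2b35 from −0.071 to 0.16 and Ugt2b5 from −0.024 to 0.52. The cause of these shifts was not tested. With libraries 2 and 3 averaged, Ggt1, Ltc4s and Nr1h4 were also no longer called (limma adjusted p = 0.218, 0.299 and 0.265).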
